A study of Mus musculus with 4 samples.

Results

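Spots of fast type IIb skeletal muscle were studied in Visium sections of the injured mouse Achilles tendon. A Visium slide holds a grid of barcoded spots, each of which collects RNA from a small patch of tissue and so can hold several cells of different types. A spot counted as IIb when it met each part of a rule on its unique molecular identifiers (UMIs, the count of captured RNA molecules). The spot held at least 500 UMIs, 14 genes of fast or general skeletal muscle (Acta1, Ckm, Myh4, Myh1, Myh2, Tnnt3, Tnni2, Tnnc2, Mylpf, Myl1, Actn3, Pvalb, Atp2a1 and Mybpc2) made up at least 5% of its UMIs, Myh4 had more UMIs than Myh1, and 6 slow fibre genes (Myh7, Myl2, Myl3, Tnnt1, Tnni1 and Tnnc1) made up less than 1%. The rule took 2486 of the 10649 spots with at least 500 UMIs, or 23.3%. The spots were chosen by the measured UMIs of these 20 genes, so the values of those genes are given as a description with no test.

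The series held 4 sections, 2 from the F592A group and 2 from the WT group. F592A mice carry a TrkA allele whose kinase pocket accepts the inhibitor 1NMPP1, and they received that compound. WT mice carry the unaltered TrkA and are labelled as control, with no statement on whether they received the compound, so genotype and drug changed together. All mice, of both sexes, were 12 weeks old, had a 0.5 mm punch made in the left Achilles tendon about 2 mm above the heel bone, and were sampled 14 days later. The injury sites of 4 mice per genotype were pooled and the 10 µm sections are not tied to animals. The p-values between the groups thus measure the spread between sections, which may be technical. In WT that spread also holds a difference in sex-linked RNA, given below.

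Limb muscle of the mouse mixes slow type I, oxidative fast type IIa, intermediate IIx and glycolytic IIb fibres, named for the myosin heavy chain each uses (Myh7, Myh2, Myh1 and Myh4). IIb fibres contract fastest, hold much glycogen and glycolytic enzyme, buffer calcium with parvalbumin and have few mitochondria, and they make up most of the superficial calf muscle from which the Achilles tendon arises. Fibres that regenerate after injury pass through a stage with the embryonic and perinatal myosins Myh3 and Myh8, and denervated fibres also change their myosins and their acetylcholine receptor subunits.

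The genes for the adult fast myosins lie side by side on chromosome 11, and their promoters are shown because the choice between Myh4 and Myh1 defines the spots. Each sequence is the 250 bases before and the 50 bases after the annotated start on the plus strand, from RefSeq on GRCm38.p6, at chr11:67237562-67237861 for Myh4, chr11:67199852-67200151 for Myh1 and chr11:67170777-67171076 for Myh2. Capitals mark matches on either strand to the E-box CANNTG bound by MyoD family factors, to TATAAA, to the MEF2 consensus, to the Maf half-site TGCTGA and to the MEF3 letters TCAGGTT.
Myh4 promoter: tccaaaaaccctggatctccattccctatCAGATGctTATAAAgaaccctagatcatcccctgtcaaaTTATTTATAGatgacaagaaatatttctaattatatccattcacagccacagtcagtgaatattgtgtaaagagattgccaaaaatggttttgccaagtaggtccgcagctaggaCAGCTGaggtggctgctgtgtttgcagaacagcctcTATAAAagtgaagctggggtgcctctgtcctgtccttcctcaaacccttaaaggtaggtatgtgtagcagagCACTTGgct
Myh1 promoter: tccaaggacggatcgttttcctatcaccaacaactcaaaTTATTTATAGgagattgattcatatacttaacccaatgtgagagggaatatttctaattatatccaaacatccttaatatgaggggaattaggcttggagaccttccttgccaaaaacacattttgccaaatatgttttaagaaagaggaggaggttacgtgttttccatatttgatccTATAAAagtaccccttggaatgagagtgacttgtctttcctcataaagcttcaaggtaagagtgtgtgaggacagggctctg
Myh2 promoter: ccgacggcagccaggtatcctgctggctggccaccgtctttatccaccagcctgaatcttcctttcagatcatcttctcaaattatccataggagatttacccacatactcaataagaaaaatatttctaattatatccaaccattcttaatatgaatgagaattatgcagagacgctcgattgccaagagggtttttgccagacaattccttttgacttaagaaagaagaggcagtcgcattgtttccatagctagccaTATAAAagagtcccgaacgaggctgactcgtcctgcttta
The Myh4 window held 3 E-boxes, beginning at -221, -67 and 42 from the start, and the Myh1 and Myh2 windows held 0. Among 32851 mouse promoter windows of the same length, 72.3% held an E-box. TATAAA began at -213, -179 and -31 in Myh4, at -208 and -32 in Myh1 and at 11 in Myh2, against 13.6% of all windows with at least 1 match. The MEF2 consensus, present in 3.19% of all windows, matched at -182 in Myh4 and at -211 in Myh1, where it overlaps a TATAAA in each, and had 0 matches in Myh2. TGCTGA and TCAGGTT had 0 matches in these 3 windows, against 19.5% and 4.07% of all windows. A match is a string of letters and not a shown binding site.

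The sections held 43957617 and 37089208 UMIs for F592A and 42911141 and 30154873 UMIs for WT, and 3 to 4 spots per section fell under 500 UMIs. IIb spots held 8.87% to 12.6% of a section's UMIs. WT 2 stood apart: its IIb spots were fewest, had the highest median depth (8997 UMIs, against 4494 and 6034 in F592A 1 and 2 and 5030.5 in WT 1) and held 289 UMIs of Xist, the RNA that silences an X chromosome in female cells, against 2 and 1 in F592A and 5 in WT 1. Y-linked genes gave 902 and 943 UMIs in F592A, 792 in WT 1 and 2 in WT 2. The WT sections thus differed in sex-linked RNA and the F592A sections did not, so sex is partly confounded with group. The part of sex in the differences between the groups was not tested. A few IIb spots were very deep, since 10, 2, 4 and 0 spots of F592A 1, F592A 2, WT 1 and WT 2 held 30000 or more UMIs and together 16.1%, 5.29%, 5.48% and 0% of the IIb UMIs. Those spots had more collagen, at 51663 to 92706 CPM (UMIs of a gene relative to all UMIs of the sum, on a fixed scale), against 24850 to 43579 CPM in the other IIb spots of the same sections. The sections share an array layout, with 727 barcodes present in all 4, and 419 IIb barcodes were shared by the F592A pair, 74 by the WT pair and 0 by all 4.

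IIb spots formed large continuous fields. The largest patch of adjoining IIb spots held 72.1% and 78.1% of them in F592A 1 and 2 and 60.7% and 89.1% in WT 1 and 2, in 15 to 22 patches per F592A section and 8 to 16 per WT section. Of the spots next to an IIb spot, 87.9% and 88.4% were also IIb in F592A and 88.3% and 81.0% in WT, while 2.06% to 5.12% were IIx spots. IIx spots meet the same rule with Myh1 above Myh4, and there were 295 of them, 84 and 87 in F592A and 99 and 25 in WT.

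**Figure D1:**
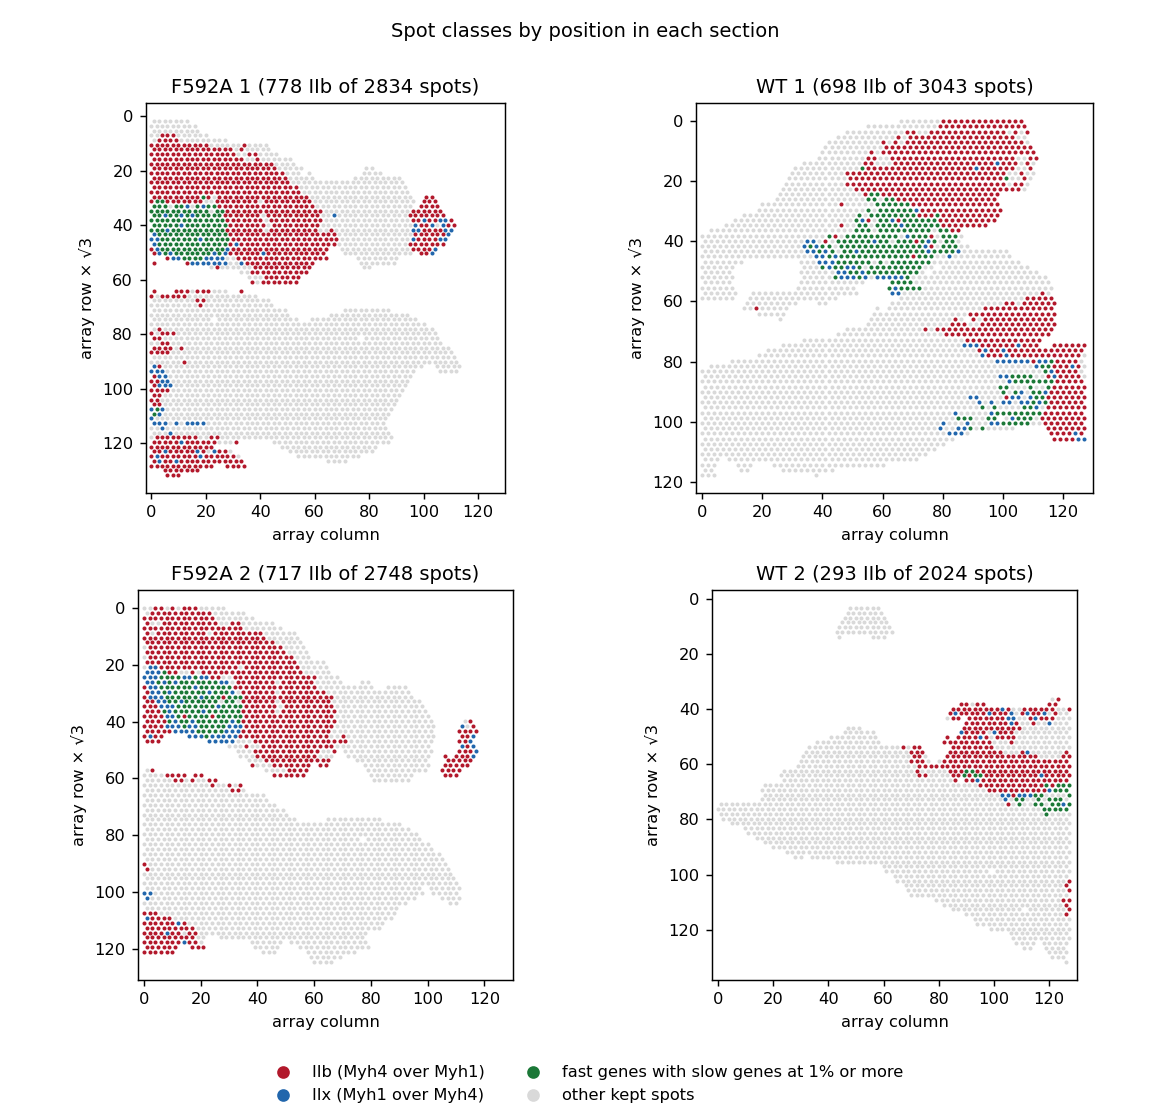
Position of each kept spot in the 4 sections, F592A on the left and WT on the right, with array column across and array row (scaled to true spacing) down. Red spots are IIb, blue spots IIx, and green spots pass the fast gene share but have slow genes at 1% or more. Grey spots are the kept spots in none of these classes. IIb spots lie in fields, and the largest field of each section holds 60.7% to 89.1% of its IIb spots.

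IIb spots made up 27.5% (95% Wilson interval 25.8% to 29.1%) and 26.1% (24.5% to 27.8%) of the kept spots in F592A 1 and 2, and 22.9% (21.5% to 24.5%) and 14.5% (13.0% to 16.1%) in WT 1 and 2. The intervals cover counting error only. The F592A share averaged 26.8% ± 0.962 and the WT share 18.7% ± 5.98 (SD, n = 2 each), a difference of 8.06 percentage points with an exact two-sided permutation p of 0.3333, the smallest that 2 sections against 2 can give. Both F592A sections lay above both WT sections, but the difference was 3.83 points without WT 2. The area of muscle taken with each section and a difference between the groups cannot be told apart. Fewer muscle fibres in a spot and less RNA per fibre cannot be told apart in these counts.

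Near the limit of the rule the spots changed gradually. With fast genes at 5% to 5.5% of UMIs, just inside the limit, there were 30 and 41 IIb spots in F592A and 37 and 21 in WT, with a median of 22, 28, 16 and 29 Myh4 UMIs in F592A 1, F592A 2, WT 1 and WT 2. Just outside it, at 4.5% to 5%, there were 55, 41, 30 and 31 spots with a median of 17, 24, 11 and 33 Myh4 UMIs in the same order. The margin of Myh4 over Myh1 was seldom narrow: 4, 4, 8 and 1 IIb spots had a lead of 2 UMIs or less.

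The 5 defining markers of the label were all abundant in the spots, as the rule requires. Myh4, the IIb myosin heavy chain, had 19414 and 20360 CPM in F592A IIb spots and 18750 and 15365 CPM in WT IIb spots. In all other kept spots Myh4 had 856 and 950 CPM in F592A and 450 and 941 CPM in WT. Here and below, the other spots are all kept spots outside the IIb class, with IIx and further muscle spots among them. Myh4 was thus lowest in WT 2 among the IIb spots, and WT 1 lay close to F592A 1. As Myh4 helped to choose the spots, its order between the groups is only a description. Myh4 gave 84.7% and 88.8% of the UMIs of the 3 adult fast myosins in F592A, and 86.3% and 74.9% in WT. Myh1, the IIx myosin, gave 11.4% and 8.13% of those UMIs in F592A and 9.77% and 19.3% in WT. Myh2, the IIa myosin, gave 3.92% and 3.05% in F592A and 3.96% and 5.85% in WT. The mix was purest in F592A 2 and least pure in WT 2, and WT 1 lay between the F592A sections. Spots with no Myh1 UMI at all numbered 55 and 34 in F592A and 36 and 0 in WT, the last in the section with the highest median depth.

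The fast genes of the rule did not separate IIb from IIx spots equally. Pvalb, the calcium buffer parvalbumin, had 9573 and 9069 CPM in IIb spots of F592A and 7703 and 7940 CPM in IIb spots of WT, against 4576 and 2569 CPM in F592A IIx spots and 1401 and 3593 CPM in WT IIx spots. Actn3, the fast fibre alpha-actinin of the Z-disc, was higher in IIb than in IIx spots by log2 ratios of 1.42 and 1.98 in F592A and 1.95 and 0.89 in WT. Mybpc2, the fast myosin-binding protein C, gave log2 ratios of 1.44 and 1.77 in F592A and 2.51 and 1.07 in WT. Tnnt3, fast troponin T, gave 0.98 and 0.82 in F592A and 1.19 and 0.75 in WT. Acta1, the actin of all skeletal fibres, had log2 ratios of -0.01 and -0.05 in F592A and 0.04 and 0.31 in WT, near 0 in 3 of the 4 sections.

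The slow genes capped by the rule were unevenly spread over the sections. They made up 0.0846% and 0.0769% of IIb UMIs in F592A and 0.225% and 0.208% in WT. Myh7, the slow myosin, had 79.3 and 88.7 CPM in F592A IIb spots and 362 and 471 CPM in WT IIb spots, and Tnnt1, slow troponin T, had 110 and 90.0 CPM in F592A and 332 and 423 CPM in WT. The same 6 genes summed to 503 and 507 CPM in the other spots of F592A and to 2184 and 1200 CPM in those of WT. The groups thus also differed in the level of slow gene RNA outside the IIb spots. Spots that pass the fast gene share with slow genes at 1% or more numbered 139 and 114 in F592A and 256 and 33 in WT. WT 2 thus had the fewest of these spots, at 1.63% of its kept spots, and WT 1 the most, at 8.41%.

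To describe what sets IIb spots apart from IIx spots beyond the rule, UMIs were summed per section over each kind of spot and compared within sections with the quasi-likelihood test of edgeR, adjusted by Benjamini and Hochberg over all genes tested, with a threshold of 0.05. CPM values given with a test carry the scaling of that test. Of 11497 genes tested, 393 (3.42%) were higher and 188 (1.64%) lower in IIb spots, and the median log2 fold change over all genes was -0.03. The counts were 161 higher and 87 lower without F592A 1, 559 and 383 without F592A 2, 151 and 93 without WT 1, and 255 and 92 without WT 2. Spots of 30000 or more UMIs weighed much in some IIx sums. Without them the sum went from 1072860 to 480973 UMIs in F592A 1 and from 574520 to 527482 in F592A 2. It went from 1296692 to 839330 in WT 1 and did not change in WT 2. The counts were then 331 higher and 222 lower. The genes tested here were read from the same spots that the rule split by Myh4 and Myh1, so genes that follow those myosins had to differ. Collagen and matrix genes summed to 39764 and 28437 CPM in F592A IIb spots and 44022 and 78526 CPM in WT IIb spots, against 61973 and 26208 CPM in F592A IIx spots and 54049 and 83872 CPM in WT IIx spots. The IIx spots thus held more of this RNA in 3 of the 4 sections, and its part in the differences was not tested.

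The gene lists used from here on were chosen with earlier results of these data known, so their counts and medians are descriptions. Of 7 tested polyamine and amino acid genes 2 were called, both higher in IIb spots, Amd1 and Smox. Amd1, S-adenosylmethionine decarboxylase, had 176 and 310 CPM in F592A IIb spots and 207 and 12.1 CPM in WT IIb spots, against 27.3 and 26.6 CPM in F592A IIx spots and 8.94 and 0 CPM in WT IIx spots. Amd1 was thus higher in IIb spots in every section, at a much lower level in WT 2, with a log2 fold change of 3.51 (SE 0.251, adjusted p = 5.58e-09). Amd1 and Amd2 are near-identical, so reads can be split between them. Smox, spermine oxidase, had 288 and 307 CPM in F592A IIb spots and 165 and 55.2 CPM in WT IIb spots, against 51.9 and 79.9 CPM in F592A IIx spots and 32.3 and 23.2 CPM in WT IIx spots (log2 fold change 2.19, SE 0.188, adjusted p = 5.47e-08 in edgeR). Prkag3, the muscle regulatory subunit of the energy sensor AMPK, had 283 and 242 CPM in F592A IIb spots and 236 and 118 CPM in WT IIb spots, against 76.5 and 38.0 CPM in F592A IIx spots and 63.9 and 38.6 CPM in WT IIx spots. IIb and IIx values of Prkag3 did not overlap across the 4 sections, and its log2 fold change was 2.02 (SE 0.182).

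Glycogen breakdown and glycolysis followed the same direction, with 12 of 25 genes higher in IIb spots and 0 lower, a list median of 0.54 against -0.03 over all genes. Pfkfb3, which makes the activator of phosphofructokinase, had 138 and 166 CPM in F592A IIb spots and 155 and 53.7 CPM in WT IIb spots, against 22.9 and 47.6 CPM in F592A IIx spots and 17.2 and 11.6 CPM in WT IIx spots (log2 fold change 2.53, SE 0.212, adjusted p = 3.96e-08 in edgeR). Phkg1 and Phka1, the catalytic and a regulatory subunit of phosphorylase kinase, had log2 fold changes of 1.62 and 1.51, and Pygm, the muscle glycogen phosphorylase that this kinase activates, had 1.01. Pygm had 2274 and 2138 CPM in F592A IIb spots and 1887 and 1360 CPM in WT IIb spots, against 997 and 1573 CPM in F592A IIx spots and 522 and 923 CPM in WT IIx spots. Gpd1 and Gpd2, the cytosolic and the mitochondrial glycerol-3-phosphate dehydrogenase that together form a shuttle for cytosolic NADH, had 1.36 and 1.86. Gpd2 was not on the list and was named by its size of change. Gapdh, Pgam2, Fbp2, Pgm1, Phkb and Ampd1 were among the other members that rose.

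Genes of excitation-contraction coupling were higher in IIb spots for 6 of 20 members and lower for 1, with a median of 0.33. Trdn, which anchors calsequestrin at the calcium release channel, had 2314 and 2215 CPM in F592A IIb spots and 2081 and 1912 CPM in WT IIb spots, against 743 and 1130 CPM in F592A IIx spots and 821 and 858 CPM in WT IIx spots. Its log2 fold change was 1.28 (SE 0.181, adjusted p = 5.96e-05 in edgeR), and the IIb and IIx values did not overlap. Ryr1, the release channel itself, had 0.90, and Mrln, a small inhibitor of the calcium pump, had 1.14. Atp1b1, a sodium pump subunit, was the member that fell, by 1.43. Of 30 other sarcomere and Z-disc genes, 10 rose and 5 fell, with a median of -0.06. Tpm1, the fast alpha-tropomyosin, had 13242 and 14107 CPM in F592A IIb spots and 13234 and 8542 CPM in WT IIb spots, against 6473 and 7429 CPM in F592A IIx spots and 5317 and 4779 CPM in WT IIx spots (log2 fold change 1.03). Mylk4, a myosin light chain kinase family member, rose by 1.68, while Actn2, the alpha-actinin of all fibres including slow ones, fell by 1.65.

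Of 20 fibre type transcription factors, which act in fast or in oxidative fibres, 4 were higher in IIb spots and 1 lower, with a median of 0.06. Maf, a large Maf factor known in the mouse to drive IIb myosin, had 466 and 502 CPM in F592A IIb spots and 455 and 447 CPM in WT IIb spots, against 156 and 202 CPM in F592A IIx spots and 164 and 278 CPM in WT IIx spots. The IIb values of Maf lay close together in all sections and above every IIx value, with a log2 fold change of 1.29 (SE 0.171, adjusted p = 3.33e-05 in edgeR). Sox6, a repressor of slow fibre genes, had 1.27, Mafa 0.79 and Tbx15 0.60. The call for Mafa was lost without F592A 1, where its log2 fold change was 0.51 with an edgeR adjusted p of 0.298. Esrrg, an estrogen-related receptor of oxidative fibres, had a log2 fold change of -1.28 (adjusted p = 0.0111 in edgeR). That call was lost without F592A 1 (adjusted p = 0.0706) and without F592A 2 (adjusted p = 0.0605).

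Slow fibre genes outside the rule were lower in IIb spots for 8 of 8 members, with a median of -1.70, and the cap on slow genes and the split by myosin favour this direction. Casq2, the slow and cardiac calsequestrin, had 19.6 and 13.7 CPM in F592A IIb spots and 71.3 and 45.8 CPM in WT IIb spots, against 88.9 and 72.3 CPM in F592A IIx spots and 304 and 139 CPM in WT IIx spots (log2 fold change -2.07, SE 0.164, adjusted p = 2.47e-08 in edgeR). Sln, sarcolipin, an inhibitor of the calcium pump, had 9.43 and 10.4 CPM in F592A IIb spots and 113 and 165 CPM in WT IIb spots, against 44.0 and 51.4 CPM in F592A IIx spots and 416 and 444 CPM in WT IIx spots (log2 fold change -1.87, SE 0.176). Within every section the IIb value of each gene was the lower. Csrp3, a stretch-linked LIM protein of slow and cardiac muscle, fell by 2.02 on the log2 scale.

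Oxygen storage and fatty acid use were lower in IIb spots for 7 of 20 genes and higher for 0, with a median of -0.64. Mb, myoglobin, had 1809 and 1217 CPM in F592A IIb spots and 1486 and 1730 CPM in WT IIb spots, against 4257 and 7277 CPM in F592A IIx spots and 2673 and 2759 CPM in WT IIx spots. Every IIx value of Mb lay above every IIb value, and its log2 fold change was -1.32 (SE 0.247, adjusted p = 0.0013 in edgeR). Fabp3, the fatty acid carrier of oxidative muscle, fell by 1.06. Nuclear genes of oxidative phosphorylation had 0 calls of 22 in edgeR and in DESeq2, with 2 at an unadjusted edgeR p under 0.05. Of them 20 were negative, with a median of -0.16, which was 0.05 without F592A 2. Of 12 mitochondrial genome transcripts, mt-Atp8 and mt-Nd4l rose and the list median was 0.31; mt-Nd4l lost its call without F592A 1 (adjusted p = 0.0549) and without WT 1 (adjusted p = 0.0848) in edgeR.

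Genes of regenerating muscle were lower in IIb spots for 10 of 14 members, with a median of -1.43. Myh8, the perinatal myosin, had 13.0 and 6.19 CPM in F592A IIb spots and 112 and 28.0 CPM in WT IIb spots, against 113 and 28.5 CPM in F592A IIx spots and 496 and 116 CPM in WT IIx spots (log2 fold change -2.39, SE 0.193, adjusted p = 2.47e-08 in edgeR). Myh3, the embryonic myosin, fell by 2.30 and Myog, the differentiation factor myogenin, by 1.70. For these 3 genes IIx spots of each section had the higher level. The sum over the list, in plain CPM, was 589 and 551 in F592A IIb spots and 1806 and 898 in WT IIb spots, against 1171 and 519 in F592A IIx spots and 6435 and 1975 in WT IIx spots, so F592A 2 went the other way. Mstn, myostatin, the secreted brake on muscle growth, had 125 and 133 CPM in F592A IIb spots and 122 and 98.8 CPM in WT IIb spots, against 58.1 and 20.9 CPM in F592A IIx spots and 22.7 and 61.8 CPM in WT IIx spots (log2 fold change 1.70, SE 0.229).

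Markers of other tissue also differed between the spot kinds. All 9 of 9 keratinocyte markers were higher in IIb spots, with a median of 1.27, and 0.90 without spots of 30000 or more UMIs. Their summed level was 1738 and 3728 CPM in F592A IIb spots and 1097 and 337 CPM in WT IIb spots, against 532 and 2003 CPM in F592A IIx spots and 504 and 263 CPM in WT IIx spots. It was 2029 and 2679 CPM in the other spots of F592A and 1753 and 578 CPM in those of WT, so it was found in each kind of spot, and no marker of the list was at 0 in the IIb spots of any section. Its part in the differences between the spot kinds was not tested. Collagen and matrix genes had 0 calls of 16 in edgeR and in DESeq2, with 5 at an unadjusted edgeR p under 0.05 and a median of -0.31, and the macrophage list had 4 of 14 lower, calls that were lost without F592A 1 (Adgre1 adjusted p = 0.114, Cd74 adjusted p = 0.149 in edgeR) and without WT 1 (Adgre1 adjusted p = 0.178, Cd74 adjusted p = 0.177). Cd74, H2-Aa and H2-Ab1 lost theirs without WT 2 too (adjusted p = 0.247, 0.213 and 0.16). Hba-a1 and Hba-a2, near-identical globin genes whose counts are uncertain, were higher in IIb spots. Without F592A 1 the edgeR adjusted p was 0.0866 for Hba-a1 and 0.119 for Hba-a2, without WT 1 it was 0.321 for Hba-a1 and 0.148 for Hba-a2, and without WT 2 it was 0.158 for Hba-a1.

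**Figure D2:**
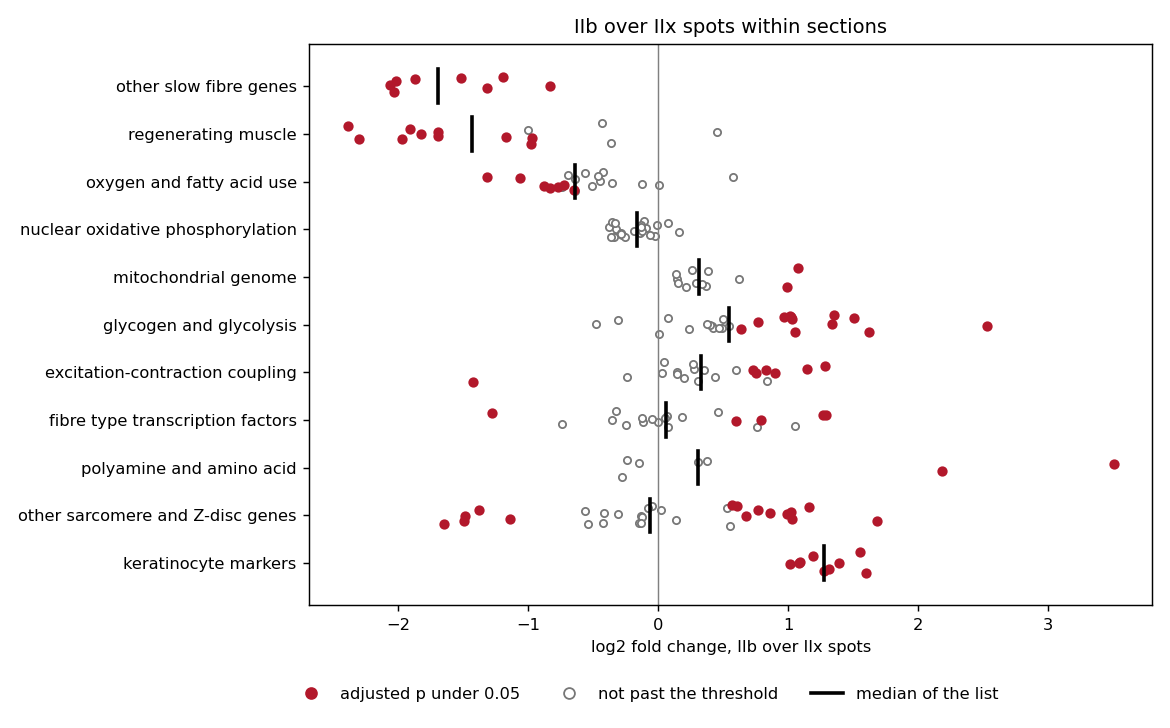
Log2 fold change of IIb over IIx spots within sections for each tested gene of the listed groups (points), with the median of each group as a bar. Slow fibre genes outside the rule lie lowest with a median of -1.70, and glycogen and glycolysis genes lie mostly above 0 with a median of 0.54. Nuclear oxidative phosphorylation genes lie mostly a little below 0, with a median of -0.16.

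The fields had a graded border. A rim spot was an IIb spot with at least 1 adjacent kept spot in which the 20 rule genes made up under 5% of UMIs, and a core spot had at least 5 adjacent kept spots, all of them above that share. There were 165 and 186 rim spots in F592A and 106 and 79 in WT, against 550 and 481 core spots in F592A and 543 and 188 in WT. The rule genes class the neighbours, so the fast gene share itself is a description: the 14 fast genes summed to 92448 and 82585 CPM in rim spots of F592A and 89370 and 76739 CPM in those of WT, against 160006 and 141784 CPM in F592A and 141261 and 126265 CPM in WT at 5 or more steps inside the field. Myh4 was lower in the rim by log2 ratios of -0.99 and -0.96 in F592A and -0.84 and -0.79 in WT. Myh1 was higher in the rim in F592A, with log2 ratios of 0.75 and 0.73, and in WT 1, with 0.22, and lower in WT 2, with -0.66.

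Of 10883 genes tested, 1563 (14.4%) were higher and 1466 (13.5%) lower in the rim than in the core, by edgeR within sections, with a median of 0.06. CPM is a share of all UMIs of a zone, so more connective tissue RNA in a sum leaves a smaller share for muscle RNA. The zones were set by the share of muscle rule genes in the neighbouring spots. This favours lower levels in the rim for genes that follow muscle content and higher levels for genes of other tissue. Without spots of 30000 or more UMIs, the rim of F592A 1 went from 165 spots and 1027474 UMIs to 160 spots and 540549 UMIs. The rim sum went from 1077386 to 830119 UMIs in F592A 2 and from 590347 to 500463 in WT 1, and did not change in WT 2. The counts were then 1261 higher and 1138 lower. The counts were 906 higher without F592A 1 and 971 without F592A 2, and with fast genes at 10% or more as the rule they were 71 higher and 62 lower.

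Connective tissue and immune markers were higher in the rim. All 16 of 16 collagen and matrix genes rose, with a median of 0.77. Col3a1, a collagen of repair tissue, had 9450 and 6150 CPM in rim spots of F592A and 8382 and 9419 CPM in rim spots of WT, against 3783 and 2423 CPM in core spots of F592A and 5806 and 6977 CPM in core spots of WT (log2 fold change 0.91, SE 0.133, adjusted p = 3.55e-06 in edgeR). The rim was the higher zone of Col3a1 in every section, with the wider gap in F592A. Among 13 fibroblast and tendon cell markers 9 rose, among them Tnmd, a membrane protein of tendon cells, and Thbs4, a tendon matrix protein, which rose by 1.17. Of 14 macrophage markers 13 rose, C1qa, a complement subunit made by macrophages, by 1.01. All 7 of 7 tested adipocyte markers rose, with a median of 1.18, and 0 of 11 endothelial markers were called in edgeR or DESeq2, with 1 at an unadjusted edgeR p under 0.05.

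Single genes were named by the size of their rise, among them 3 of the complement system, for which no list was tested. C4b, complement component 4, had 153 and 124 CPM in rim spots of F592A and 66.4 and 67.7 CPM in rim spots of WT, against 39.2 and 29.2 CPM in core spots of F592A and 21.7 and 24.5 CPM in core spots of WT. Every rim value of C4b lay above every core value, and its log2 fold change was 1.84 (SE 0.141, adjusted p = 1.35e-10 in edgeR). Cfd, the adipocyte protease adipsin that activates the alternative pathway, had 387 and 703 CPM in rim spots of F592A and 168 and 38.3 CPM in rim spots of WT, against 133 and 203 CPM in core spots of F592A and 40.7 and 16.9 CPM in core spots of WT (log2 fold change 1.70). Cfb, factor B, rose by 1.52. Spon2, a secreted matrix protein, rose by 1.87 and Serpina3n, an acute phase protease inhibitor, by 1.46.

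Muscle metabolism genes were lower in the rim as whole lists, a direction that the definition of the zones favours. All 25 of 25 glycogen and glycolysis genes fell (median -0.95), as did 22 of 22 nuclear oxidative phosphorylation genes (median -0.72), 12 of 12 mitochondrial genome transcripts (median -1.04) and 19 of 20 excitation-contraction coupling genes (median -0.72). Of 30 sarcomere genes outside the rule 25 fell, with a median of -0.78. With fast genes at 10% or more as the rule, the medians of these 5 lists lay between -0.70 and -0.29. Pygm, the glycogen phosphorylase, had 1335 and 1150 CPM in rim spots of F592A and 1141 and 849 CPM in rim spots of WT, against 2796 and 2638 CPM in core spots of F592A and 2139 and 1625 CPM in core spots of WT (log2 fold change -1.03, SE 0.106, adjusted p = 1.28e-08 in edgeR). The lowest core value of Pygm was above the highest rim value. Myh4 itself, a rule gene, was lower in the rim by a like amount.

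Larger falls than the medians of these lists were seen for single genes, with no test of that difference. Smox had 80.2 and 147 CPM in rim spots of F592A and 80.3 and 40.9 CPM in rim spots of WT, against 396 and 394 CPM in core spots of F592A and 193 and 63.0 CPM in core spots of WT (log2 fold change -1.53, SE 0.159). Gadd45g, a stress-induced growth arrest gene, had 27.6 and 23.8 CPM in rim spots of F592A and 10.8 and 12.8 CPM in rim spots of WT, against 86.8 and 90.4 CPM in core spots of F592A and 24.4 and 24.5 CPM in core spots of WT (log2 fold change -1.61, SE 0.185, adjusted p = 7.66e-08 in edgeR). Core spots were the higher for both genes in each section. Plcd4, a phospholipase C, fell by 1.57, Pfkfb3 by 1.43 and Ppp1r3a, a subunit that targets protein phosphatase to glycogen, by 1.44. Of 18 tested fibre type transcription factors 12 fell, among them Sox6 by 0.92, Mafa by 0.88 and Maf by 0.73, against the list median of -0.75.

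Immediate early genes, which switch on within minutes of a stimulus, were higher in the rim for 9 of 20 members and lower for 1, with a median of 0.52, and Egr1 rose by 1.08. The median was 0.08 with fast genes at 10% or more as the rule. Regenerating muscle genes rose for 7 of 13 members and fell for 1, with a median of 0.46. That median was -0.03 without spots of 30000 or more UMIs, where Myog had -0.16, Myh8 -0.05 and Myl4 -0.05, against 1.04, 0.85 and 0.71 with them. Myog and Myh8 lost their calls without F592A 1 (adjusted p = 0.102 and 0.0561 in edgeR), and Myog and Myl4 without WT 1 (adjusted p = 0.245 and 0.0885). Keratinocyte markers showed no such border: 1 of 9, Sfn, rose, a call lost without F592A 1, WT 1 or WT 2 (adjusted p = 0.157, 0.344 and 0.175 in edgeR), and the median was 0.05, with -0.48 to 0.53 over the alternatives. Their sum was 1942 and 4207 CPM in rim spots of F592A and 1587 and 326 CPM in rim spots of WT, against 1703 and 3592 CPM in core spots of F592A and 980 and 324 CPM in core spots of WT.

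**Figure D3:**
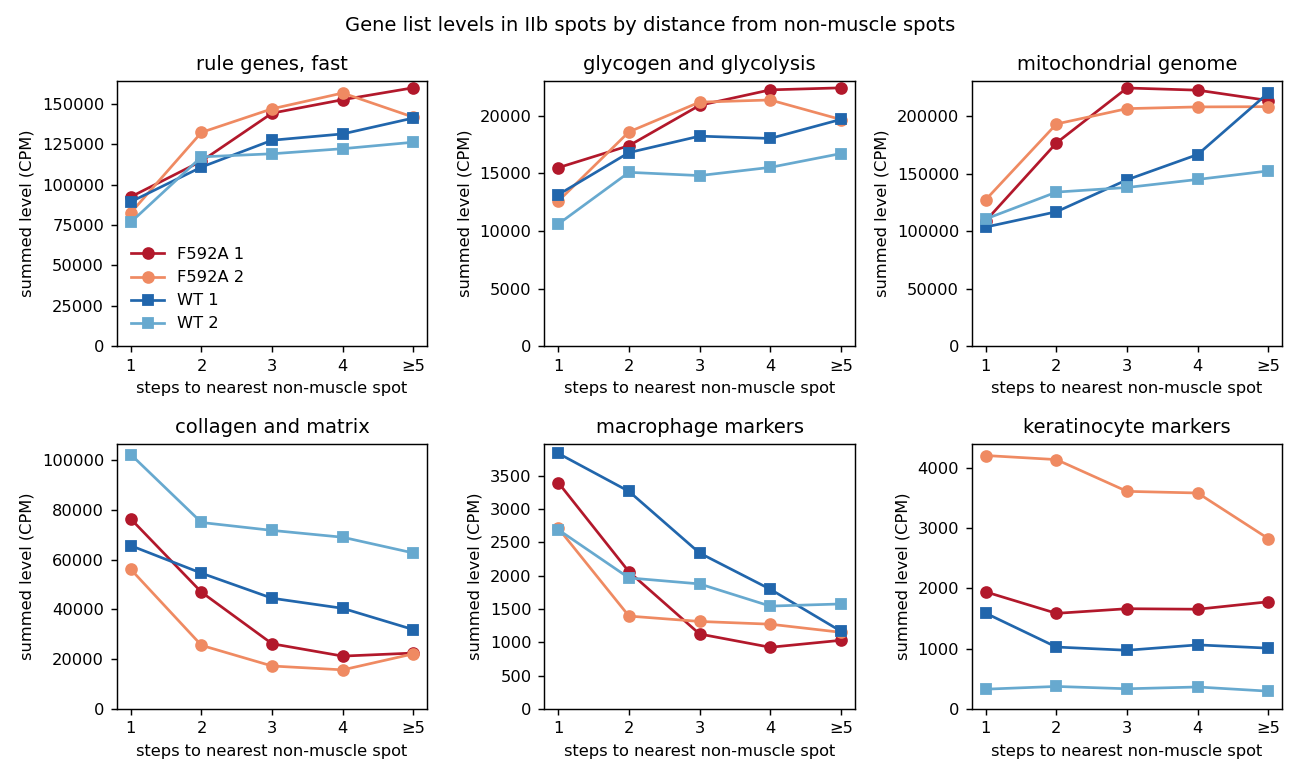
Summed level in CPM of 6 gene lists in IIb spots at 1, 2, 3, 4 and 5 or more steps from the nearest spot that is not muscle, with a line for each section (F592A and WT in separate colours). In each section collagen is highest at 1 step, at 56130 to 102390 CPM, against 22127 to 62735 CPM at 5 or more steps, while fast genes and mitochondrial transcripts are lowest at 1 step.

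Collagen and matrix genes had a lower summed level at 5 or more steps than at 1 step in every section, at levels that differed by section. In both F592A sections the lowest sum was at 4 steps, and in both WT sections it was at 5 or more. They had 22442 and 22127 CPM at 5 or more steps in F592A and 31891 and 62735 CPM in WT, against 76431 and 56130 CPM at 1 step in F592A and 65677 and 102390 CPM in WT. The value of WT 2 at 5 or more steps thus lay between the values at 1 step of F592A 2 and WT 1, and the field of WT 2 was the smallest, reaching 6 steps at most, against 10 to 14 in the other 3 sections.

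F592A IIb spots were then compared with WT IIb spots, with the section as the replicate. Of 12343 genes tested with edgeR, 25 (0.203%) were higher and 19 (0.154%) lower in F592A, and the median log2 fold change over all genes was -0.01. At an unadjusted p under 0.05 there were 1482 genes. The counts were 167 higher and 111 lower without F592A 1, 128 and 107 without WT 1, and 114 and 149 without spots of 30000 or more UMIs. The calls include genes of muscle fibres, skin, fat and blood, described by these groups below. Over all genes tested, both F592A sections lay above both WT sections for 21.2% and below them for 22.2%, and the largest called changes were named only where the groups did not overlap. Krt77, Gadd45g, Myh3, Sln, Igf2 and Hbb-bs were still called in all 15 alternatives tried.

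Genes of immature and slow fibres were lower in F592A. Myh3, the embryonic myosin of newly formed fibres, had 2.48 and 0.846 CPM in F592A IIb spots and 107 and 71.5 CPM in WT IIb spots. Both WT sections lay far above both F592A sections, with a log2 fold change of -5.75 (SE 0.371, adjusted p = 0.0015 in edgeR). Sln had 9.0 and 9.94 CPM in F592A IIb spots and 109 and 159 CPM in WT IIb spots, a log2 fold change of -3.81 (SE 0.237, adjusted p = 0.0015). Igf2, a fetal growth factor induced in regenerating muscle, had 14.0 and 13.8 CPM in F592A IIb spots and 103 and 48.5 CPM in WT IIb spots (log2 fold change -2.47, SE 0.334, adjusted p = 0.0348). For each of these genes both WT values lay above both F592A values.

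Of 13 tested regenerating muscle genes 4 fell, Myh3, Igf2, H19 and Dlk1, all 13 had a negative log2 fold change and the median was -2.22 (-3.00 to -1.14 over the alternatives). Members that did not pass had wide spread between the WT sections. Myh8 had 12.4 and 5.92 CPM in F592A IIb spots and 108 and 27.0 CPM in WT IIb spots, with a log2 fold change of -2.92 and an edgeR adjusted p of 0.123. Actc1, the cardiac actin of developing muscle, had 229 and 278 CPM in F592A IIb spots and 454 and 68.5 CPM in WT IIb spots, so the groups overlapped (-0.05, adjusted p = 0.984). H19 lost its call without F592A 2 (adjusted p = 0.204), and Dlk1 without F592A 2 (adjusted p = 0.0778) and without WT 2 (adjusted p = 0.0625). Of 14 genes of the neuromuscular junction and denervation, another list, 0 passed in edgeR, with 7 at an unadjusted p under 0.05 and a median of -0.52, and 1 was lower in DESeq2. Chrna1, the acetylcholine receptor alpha subunit that fibres without innervation re-express, had 9.46 and 5.92 CPM in F592A IIb spots and 51.1 and 18.6 CPM in WT IIb spots (-2.22, adjusted p = 0.123).

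Slow fibre genes outside the rule fell for 4 of 8 members, Sln, Tpm3, Myoz2 and Casq2, and all 8 had a negative log2 fold change, with a median of -1.20. Casq2 had 18.7 and 13.1 CPM in F592A IIb spots and 68.7 and 44.1 CPM in WT IIb spots (log2 fold change -1.84, SE 0.257, adjusted p = 0.038 in edgeR). Tpm3, slow alpha-tropomyosin, had 81.9 and 77.6 CPM in F592A IIb spots and 172 and 197 CPM in WT IIb spots (-1.21, adjusted p = 0.0341). Myoz2, a slow Z-disc protein, fell by 1.09. The slow rule genes, described above, helped to choose the spots and are no support for this difference. The cap on them in each spot also limits the level of genes that follow them. Tpm3 and Myoz2 lost their calls without F592A 2 (adjusted p = 0.0747 and 0.0918).

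**Figure D4:**
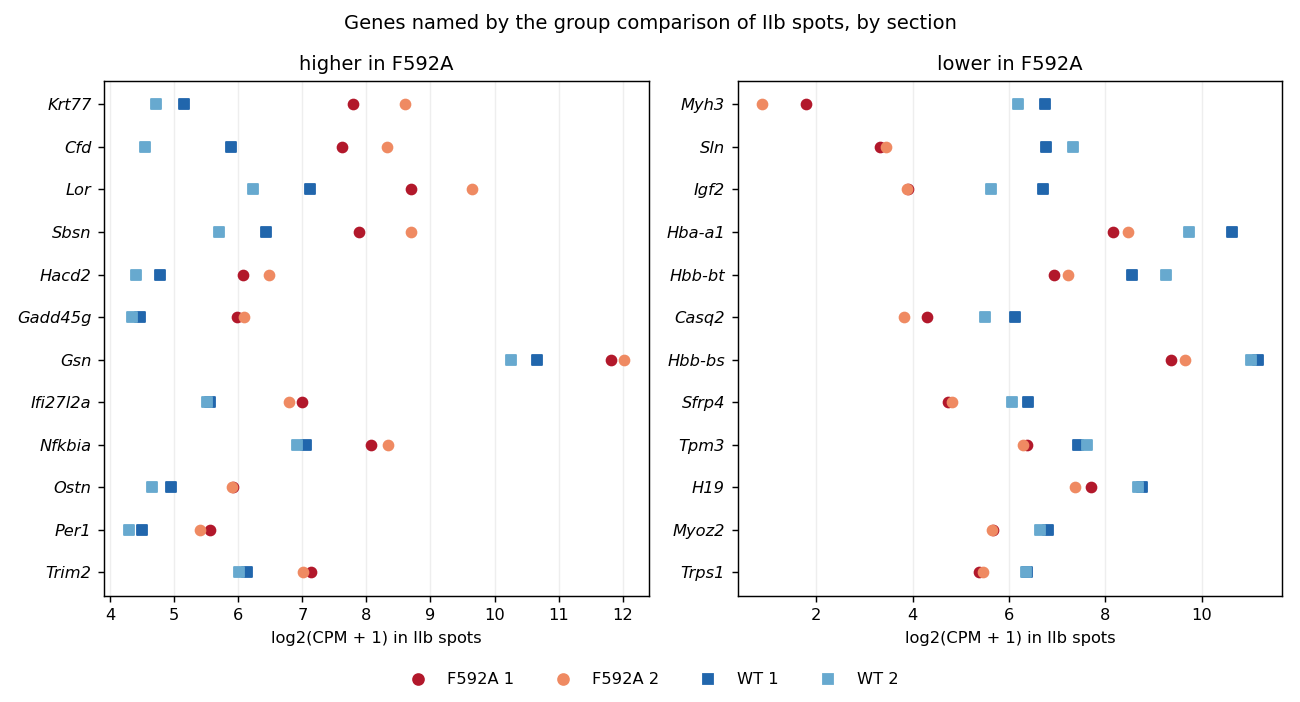
Level of 24 named genes (down the page, those higher in F592A in the left panel and those lower in the right) in IIb spots as log2(CPM + 1) across; each point is 1 section, with circles for F592A and squares for WT. Myh3 sits at 2.48 and 0.846 CPM in F592A and at 107 and 71.5 CPM in WT, and Krt77 at 221 and 386 CPM in F592A and at 34.6 and 25.2 CPM in WT.

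The lists of adult fibre metabolism, contraction and transcription factors had no calls between the groups. Of 25 glycogen and glycolysis genes 0 passed, with 24 positive, a median of 0.26 and 5 genes at an unadjusted edgeR p under 0.05. Of 22 nuclear oxidative phosphorylation genes 0 passed, with 21 positive, a median of 0.16 and 0 at an unadjusted p under 0.05. Of 12 mitochondrial transcripts 0 passed, with all positive, a median of 0.35 and 1 at an unadjusted p under 0.05. The counts were also 0 of 30 sarcomere genes (median 0.02, 6 at an unadjusted p under 0.05), 0 of 20 excitation-contraction coupling genes (median 0.09, 2) and 0 of 20 fibre type transcription factors (median 0.05, 1). DESeq2 called 0 genes of these 6 lists too. Maf had 445 and 481 CPM in F592A IIb spots and 438 and 431 CPM in WT IIb spots, a spread as narrow between the groups as within them. Of 20 atrophy genes 0 passed in edgeR and in DESeq2, with a median of 0.09 and 1 at an unadjusted edgeR p under 0.05, and Mstn had 120 and 128 CPM in F592A IIb spots and 117 and 95.2 CPM in WT IIb spots. Collagen and matrix genes had 0 calls of 16 in edgeR, with 9 at an unadjusted p under 0.05, and 1 lower in DESeq2. Of them 15 were negative with a median of -0.60, and they summed in plain CPM to 39764 and 28437 in F592A and 44022 and 78526 in WT.

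Gadd45g, Nfkbia and Per1 were higher in F592A, while the list of 16 stress and heat shock genes had 0 calls in edgeR and in DESeq2, 2 genes at an unadjusted edgeR p under 0.05, 10 negative and a median of -0.07. Gadd45g had 62.4 and 67.3 CPM in F592A IIb spots and 21.1 and 19.3 CPM in WT IIb spots, with a log2 fold change of 1.68 (SE 0.159, adjusted p = 0.0101 in edgeR). Nfkbia, the inhibitor that NF-kappaB induces, had 268 and 323 CPM in F592A IIb spots and 132 and 119 CPM in WT IIb spots (1.23, SE 0.169, adjusted p = 0.0364). Per1, a clock gene that glucocorticoids induce, had 45.9 and 41.5 CPM in F592A IIb spots and 21.6 and 18.6 CPM in WT IIb spots (1.11, adjusted p = 0.048). Slc25a25, a calcium-dependent mitochondrial carrier of ATP, rose by 2.08, and Ostn, the muscle-secreted peptide musclin, by 1.13. Per1 was the single call among 16 glucocorticoid response genes (median 0.46) and among 18 clock genes (median 0.28), and immediate early genes had 0 calls of 21 in edgeR, with 9 at an unadjusted p under 0.05, and 2 higher in DESeq2, with 19 positive and a median of 0.37. Nfkbia lost its call without F592A 2 (adjusted p = 0.0555), and without WT 2 Per1 (adjusted p = 0.119) and Ostn (adjusted p = 0.0873) lost theirs.

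Blood, skin and fat markers moved with the groups inside IIb spots. Erythroid genes fell for 4 of 5 members, with a median of -1.86: Hbb-bs, a beta-globin, had 654 and 806 CPM in F592A IIb spots and 2287 and 2088 CPM in WT IIb spots (log2 fold change -1.58, SE 0.185, adjusted p = 0.0209 in edgeR). Alas2, the erythroid enzyme that starts heme synthesis, fell by 1.93. The erythroid sum was 2466 and 4246 CPM in F592A IIb spots and 6821 and 7430 CPM in WT IIb spots. Keratinocyte markers rose for 2 of 9, Krt77 and Lor, all 9 were positive and the median was 2.05 (1.28 to 3.30 over the alternatives). Krt77, an epidermal keratin, had 221 and 386 CPM in F592A IIb spots and 34.6 and 25.2 CPM in WT IIb spots (3.33, SE 0.302, adjusted p = 0.0101). Other epidermal genes outside the list, among them Sbsn, Lce1c, Flg2, Nccrp1 and Evpl, were also called. Adipocyte markers rose for 2 of 7 in edgeR, Cfd and Adipoq, and for 6 of 7 in DESeq2, with a median of 2.44. Their sum was 747 and 1290 CPM in F592A IIb spots and 478 and 337 CPM in WT IIb spots. The part of skin, fat and blood RNA in the differences of the other genes was not tested, and Adipoq lost its call without WT 2 (adjusted p = 0.0553).

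**Figure D5:**
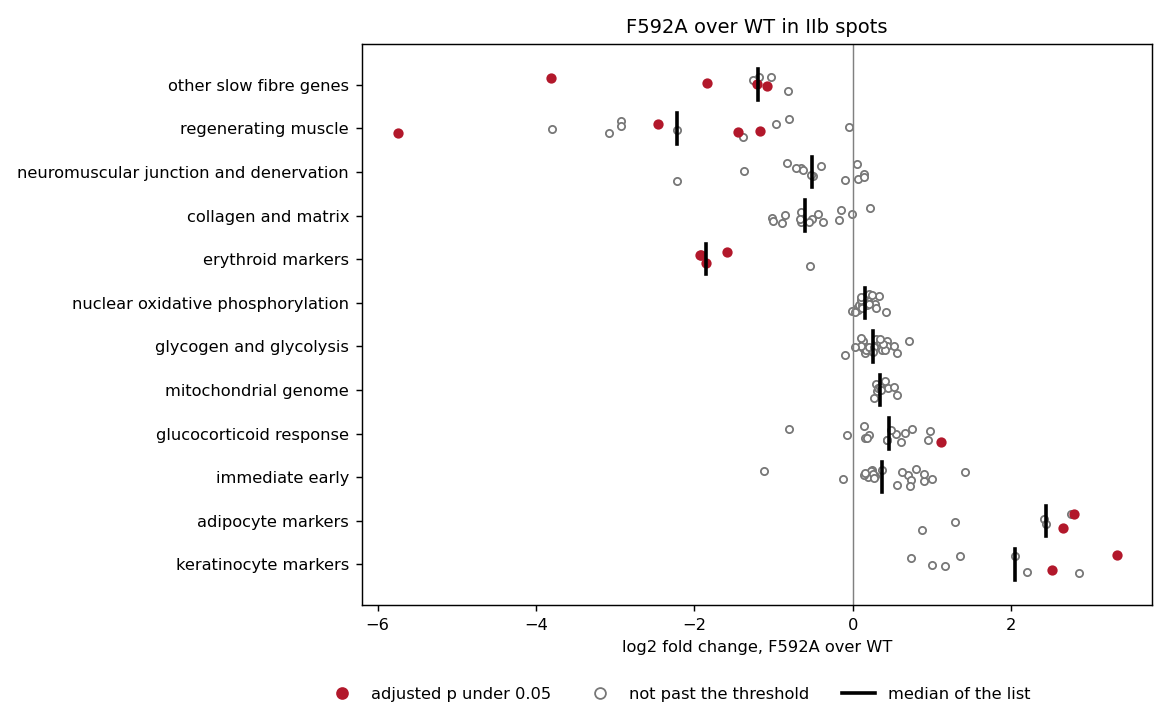
Log2 fold change of F592A over WT in IIb spots for each tested gene of the listed groups (points), with the median of each group as a bar. Regenerating muscle (median -2.22), erythroid (-1.86) and slow fibre genes (-1.20) lie below 0. Keratinocyte (2.05) and adipocyte (2.44) markers lie above 0, and nuclear oxidative phosphorylation genes lie mostly a little above 0 (0.16).

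A few other genes completed the named set. Gsn, gelsolin, which severs actin filaments, had 3592 and 4162 CPM in F592A IIb spots and 1615 and 1220 CPM in WT IIb spots (log2 fold change 1.45, adjusted p = 0.042 in edgeR). It was the 1 call among 13 fibroblast and tendon cell markers, of which 11 were negative, with a median of -0.61. Hacd2, an enzyme of fatty acid elongation, had 66.2 and 87.8 CPM in F592A IIb spots and 26.3 and 20.1 CPM in WT IIb spots (1.72, adjusted p = 0.0231). The groups did not overlap for either gene. Ifi27l2a, an interferon-induced gene, rose by 1.38 (adjusted p = 0.0209). Sfrp4, a secreted Wnt modulator, fell by 1.51, Trps1, a transcription repressor, by 0.94, and Trim2, a ubiquitin ligase, rose by 1.0. Gsn lost its call without F592A 2 (adjusted p = 0.0747), Trps1 without F592A 1, F592A 2 or WT 2 (adjusted p = 0.0761, 0.136 and 0.0636) and Trim2 without the same 3 sections (adjusted p = 0.0536, 0.0508 and 0.0826).

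Whether these differences were particular to the IIb spots was tested as a difference of differences. Against the other kept spots of the same sections, 173 of 15456 genes (1.12%) had an F592A effect in IIb spots that differed, 106 of them more positive in IIb spots and 67 more negative. The counts more negative in IIb spots were 207 without F592A 1, 318 without WT 1 and 23 without WT 2, and those more positive were 187 without WT 1. The 44 genes called within IIb spots were chosen from the same IIb sums that enter this test, which favours passing it. Their count is therefore no independent support for an effect particular to IIb spots. Of these 44 genes, 19 passed the test in the same direction. Gadd45g was among them, with 74.6 and 76.5 CPM in F592A IIb spots and 24.5 and 23.3 CPM in WT IIb spots, against 18.6 and 18.5 CPM in the other spots of F592A and 17.6 and 12.8 CPM in those of WT (difference 1.38, SE 0.195, adjusted p = 0.00171 in edgeR). Hbb-bs was another, with 783 and 917 CPM in F592A IIb spots and 2662 and 2512 CPM in WT IIb spots, against 370 and 435 CPM in the other spots of F592A and 418 and 518 CPM in those of WT (difference -1.40, adjusted p = 0.0013).

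Myh3, Sln and Krt77 differed between the groups in the other kept spots too. Those spots include the IIx spots and the fast muscle spots with slow genes at 1% or more. The part of these muscle spots in the values was not tested. Sln had 5.61 and 4.27 CPM in the other spots of F592A and 96.6 and 108 CPM in those of WT, and its difference of 0.56 had an edgeR adjusted p of 0.333. Myh3 had 1.62 and 0.534 CPM in the other spots of F592A and 150 and 38.8 CPM in those of WT (0.51, adjusted p = 0.836). Krt77 had 246 and 305 CPM in the other spots of F592A and 23.9 and 35.7 CPM in those of WT (0.01, adjusted p = 0.995). Igf2 had 16.5 and 10.5 CPM in the other spots of F592A and 167 and 110 CPM in those of WT, and its F592A effect was less negative in IIb spots by 0.96 (adjusted p = 0.047), a call lost without F592A 2 (adjusted p = 0.327) and without WT 2 (adjusted p = 0.215). Against IIx spots 1 of 11497 genes (0.0087%) passed in edgeR and 1 in DESeq2, with 327 at an unadjusted edgeR p under 0.05. Without F592A 1 the counts were 18 more positive and 44 more negative in IIb spots, without F592A 2 they were 2 and 6, without WT 1 they were 2 and 0 and without WT 2 they were 2 and 3. The gene was Actc1, with a difference of 2.77 (SE 0.456, adjusted p = 0.0115). Actc1 had 240 and 290 CPM in F592A IIb spots and 471 and 71.1 CPM in WT IIb spots, against 114 and 32.3 CPM in F592A IIx spots and 896 and 128 CPM in WT IIx spots, so it was higher in IIb than in IIx spots in both F592A sections and lower in both WT sections.

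Receptors of neurotrophins were found at low counts in IIb spots. Ntrk2, the TrkB receptor, had 107 and 101 UMIs in F592A IIb spots and 64 and 30 UMIs in WT IIb spots. Ngfr, the neurotrophin receptor, had 4 and 20 UMIs in F592A and 7 and 13 UMIs in WT. Sort1, the sortilin co-receptor of pro-neurotrophins, had 154 and 154 UMIs in F592A and 143 and 55 UMIs in WT. Of 5 tested neurotrophin and receptor genes 0 passed between the groups in edgeR and in DESeq2, with 1 at an unadjusted edgeR p under 0.05 and a median of 0.24.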

How the data were processed

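The deposited matrices of 4 Visium sections hold whole-number UMI counts per feature and spot, for 32285 features, made by the authors with Space Ranger 1.3.0, per the file headers. The submitters' processing notes name mm10 and Seurat 3, and the strand setting of the counting is not given in the sources used here. From these counts, spots with at least 500 UMIs were kept, the rule was applied, and UMIs were summed per section over IIb, IIx, rim, core or all other kept spots, with at least 10 spots per sum. The sums entered edgeR 4.0.16 and its quasi-likelihood test (R 4.3.3, TMM scaling, filterByExpr, Benjamini-Hochberg adjustment over all genes tested, threshold 0.05), with section as a block in comparisons within sections. The 20 rule genes stayed in the library sizes and got no test. CPM beside a test are TMM-scaled, and sums of lists and values of rule genes are plain CPM. Each SE is the log2 fold change divided by the square root of the test's F.

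Lists are described by counts and medians, with no set test. The members and the 32 gene lists (434 distinct genes) were chosen with earlier results of these data known. Named genes were up to 12 per direction with the largest change among those called, a log2 CPM averaging 5 or more and groups that did not overlap (or 1 sign in every section), filled to 8 by smallest p, plus up to 4 genes per list by smallest p, without markers of sex. Gpd2, Plcd4 and other genes outside the lists came in by this rule, and the lists' called members are also named. Tried besides were RLE scaling, DESeq2 1.42.0, a fit with all genes, other limits of the rule, no rule and mitochondrial genes in the sums, each section left out, core spots only, a block or no block. The alternative without spots of 30000 or more UMIs and a crossed pairing were chosen after seeing the data. A share of spots was tested with an exact permutation test, whose smallest p is 0.3333 here. With 2 sections per group, leaving out 1 leaves a lone section that is assumed to vary like the other group. The steps were tested on simulated data. Doublets do not apply to spots, and genome coordinates of promoters come from RefSeq. The results of some genes are not reported here.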

Additional observations from a re-analysis of the deposited data

Results flagged for a closer look

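The results given here had an F592A effect in IIb spots that differed from the effect in other spots of the same sections, by the interaction test of edgeR. Each value is the F592A over WT log2 fold change in IIb spots minus that in the other spots. Against IIx spots this was the case for Actc1, with 2.77. Against all other kept spots Actc1, the cardiac actin of developing muscle, had 3.43 (adjusted p = 5.61e-07), with 275 and 315 CPM in F592A IIb spots and 529 and 82.5 CPM in WT IIb spots, and 10.3 and 6.61 CPM in the other spots of F592A and 140 CPM in those of WT 1. Inside the IIb spots the groups thus overlapped, and outside them both WT sections lay above both F592A sections.

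Retnla, a secreted protein of fat and of alternatively activated macrophages, had a difference of 2.57 (adjusted p = 3.9e-06 in edgeR), with 149 and 154 CPM in F592A IIb spots and 105 and 71.1 CPM in WT IIb spots, and 10.8 and 15.4 CPM in the other spots of F592A and 65.5 and 27.9 CPM in those of WT. The groups were in opposite order inside and outside the IIb spots. Mybph, a myosin-binding protein H, had 2.25, with overlapping groups in IIb spots (140 and 101 CPM in F592A and 144 and 91.7 CPM in WT). Myf6, a myogenic factor of mature fibres, had 1.48 (adjusted p = 0.000396), with 121 and 120 CPM in F592A IIb spots and 105 and 84.2 CPM in WT IIb spots. Smox, spermine oxidase, had 1.39, with 329 and 334 CPM in F592A IIb spots and 185 and 64.1 CPM in WT IIb spots, and 26.8 and 27.9 CPM in the other spots of F592A and 27.0 and 23.1 CPM in those of WT. Mstn, myostatin, had 1.29 and Apobec2, a muscle member of the deaminase family, 1.41. Muscle lists leaned the same way: 30 of 30 sarcomere genes outside the rule were positive (median 0.47). So were 20 of 20 excitation-contraction coupling genes (median 0.49). In the other spots the sarcomere list summed to 4387 and 4499 CPM in F592A and 7131 and 4686 CPM in WT. The part of muscle RNA in the other spots in these differences was not tested. Elovl6 and Scd1, enzymes of fatty acid elongation and desaturation, had 1.44 and 1.3. Ighm, the IgM heavy chain, had 1.92, Chad, the matrix protein chondroadherin, 1.86 and Abca8a, a transporter, 1.54.

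More negative in IIb spots were the globin genes Hba-a1 (-1.64, a count shared with a near-identical copy), Hbb-bt (-1.4) and Hbb-bs (-1.4). Dlk1, a regulator of fetal and regenerating tissue, had -1.56, with 15.1 and 10.1 CPM in F592A IIb spots and at least 34.2 CPM in WT IIb spots, and 116 and 45.3 CPM in the other spots of F592A and 70.5 and 73.2 CPM in those of WT. Mss51, a mitochondrial protein of fast muscle, had -1.53, with 152 and 123 CPM in F592A IIb spots and 149 and 406 CPM in WT IIb spots, so that WT 2 stood alone. Fhl2, a LIM domain protein, had -1.54, Lrrc32, which tethers latent TGF-beta, -1.31 and C1qtnf3, a secreted C1q-like protein, -1.23. Mmp13, a collagenase, had -1.52, Inhba, an activin subunit, -1.3, Csgalnact1, an enzyme of chondroitin sulfate synthesis, -1.29 and Nr4a2, an orphan nuclear receptor, -1.25. Without WT 2 these last 4 lost their calls, with edgeR adjusted p of 0.285 for Mmp13, 0.283 for Inhba, 0.0502 for Csgalnact1 and 0.469 for Nr4a2.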

How the results depend on the processing

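Counts are given as genes higher and lower. For F592A over WT in IIb spots they were 25 and 19, and 65 and 37 with DESeq2, 391 and 365 with no filter on low counts, 11 and 11 with the winning myosin at 2 times the other, 9 with at least 2000 UMIs per spot (higher), 114 and 149 without spots of 30000 or more UMIs, and 23 to 167 and 16 to 111 with a section left out. The section numbers are not stated to pair sections, and deviations of sections numbered alike correlated at -0.17 over 12363 genes. With the replicate number as a block the counts were 45 and 31, and with the crossed pairing, chosen after seeing the data, 382 and 371. For IIb over IIx spots the counts were 393 and 188, and 184 and 69 with DESeq2, 33 and 15 with no section block, and 151 to 559 and 87 to 383 with a section left out. For rim over core they were 1563 and 1466, and 661 and 842 with DESeq2, 71 and 62 with fast genes at 10% or more, 519 and 835 with no section block, and 906 to 1417 and 1073 to 1417 with a section left out. For the difference against IIx spots they were 1 and 0, and 1 lower with RLE scaling, without rule and mitochondrial genes or without spots of 30000 or more UMIs, 2 and 2 with no filter, and 2 to 18 and 0 to 44 with a section left out. For the difference against the other spots they were 106 and 67, and 167 higher with RLE scaling, 245 and 254 with no filter, 171 lower with fast genes at 10% or more, 58 and 33 with at least 2000 UMIs, 253 lower without spots of 30000 or more UMIs, and 105 to 187 and 23 to 318 with a section left out. The share of IIb spots kept its sign, with a difference of 1.0 point with fast genes at 20% or more and 3.83 to 12.3 points with a section left out. In the rim, Runx1 reversed to -0.065 with fast genes at 10% or more (0.66 otherwise), and without spots of 30000 or more UMIs Myog, Myh8 and Myl4 reversed to -0.16, -0.047 and -0.046. The cause was not tested. Of the alternative values of 280 results, each a gene in a comparison, 473 lost the call, 18 gained one and 4 reversed. The remaining 3020 kept direction and were counted as on the same side of the threshold. A value to which DESeq2 gave no adjusted p would be counted among them. Not run, for too few sections with 10 spots of each kind, were fast genes at 20% or more in the tests across genes, at 10% or more for IIb over IIx and its group difference, and the myosin margin for that difference. WT 2 held 25 IIx spots, which limits the precision of its IIx values.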

Other observations

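Clock and atrophy genes were lower in the rim of the IIb fields than in the core. Of 18 clock genes 8 fell and 0 rose, with a median of -0.39 against 0.06 over all genes. Dbp, a clock output factor, had 131 and 132 CPM in rim spots of F592A and 86.5 and 77.9 CPM in rim spots of WT, against 172 and 186 CPM in core spots of F592A and 122 and 115 CPM in core spots of WT (log2 fold change -0.48, SE 0.117, adjusted p = 0.0021 in edgeR). The core was the higher zone in each section, and F592A lay above WT in both zones. Of 20 atrophy genes 10 fell and 1 rose, with a median of -0.39. Fbxo32, the ubiquitin ligase atrogin-1, had 53.4 and 52.4 CPM in rim spots of F592A and 40.2 and 53.6 CPM in rim spots of WT, against 99.8 and 134 CPM in core spots of F592A and 101 and 116 CPM in core spots of WT (log2 fold change -1.17).

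Small heat shock proteins of muscle were lower in IIb than in IIx spots. Cryab, alpha-B crystallin, had 844 and 590 CPM in F592A IIb spots and 850 and 937 CPM in WT IIb spots, against 2303 and 1887 CPM in F592A IIx spots and 1738 and 1202 CPM in WT IIx spots (log2 fold change -1.14, adjusted p = 0.000761 in edgeR). Every IIx value of Cryab lay above every IIb value. Hspb7 fell by 1.32, Hspb6 by 0.70 and Hspb1 by 0.63, which lost its call without F592A 1, WT 1 or WT 2 (adjusted p = 0.216, 0.221 and 0.105). Of 15 stress genes these 4 fell and 1, Chac1, rose, a call lost without F592A 1 (adjusted p = 0.0627) and WT 1 (adjusted p = 0.131). Chrna1 and Chrng, acetylcholine receptor subunits of immature fibres, were lower in IIb spots by log2 fold changes of -1.34 and -2.37. Of 16 tested genes of the neuromuscular junction and denervation, 3 were lower and 0 higher in edgeR, with a median of -0.27. DESeq2 called 2 of them lower.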
